A study of Mus musculus with 8 samples.

Results

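The collagen chain genes were taken as all rows of the count table whose symbol is Col, a number, a and a number, with nothing after it. Of 55421 rows, 44 were members, and 42 of these were among the 20477 genes with enough counts to be tested. Col9a1 and Col4a3 were too low. By the kind of assembly that the protein forms, the members comprised 11 fibrillar, 6 type IV, 6 type VI, 9 fibril-associated (FACIT), 3 network, 2 multiplexin, 4 transmembrane and 3 other collagen genes. The RNA came from primary cultures of mouse spermatogonia of the C57BL/6XDBA/2 background, an F1 hybrid, established from the testes of 6-day-old pups. Testicular cells that attached overnight were discarded when the cultures were set up, and the germ cells that stayed afloat were grown on feeders, which were irradiated mouse embryonic fibroblasts of outbred CF1 mice. Bulk mRNA-seq was done in 4 conditions, each for 2 days and with 2 libraries that the study describes as independent biological replicates. Veh cultures were kept in the complete spermatogonial medium and RA cultures received 100 nM retinoic acid in it. For nutrient restriction (NR), 10% of complete medium was mixed with 90% Earle's Balanced Salt Solution (EBSS), and NRRA cultures had both this medium and retinoic acid. The study asked whether NR together with RA starts meiosis in these cells. No removal of the feeders before RNA extraction is described, so which cells made the collagen RNA was not measured, and fewer cells of a type cannot be told apart from less RNA per cell.

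Collagens are the main structural proteins of the extracellular matrix. Each molecule is a rope of chains wound around one another, built from 1 or more kinds of chain, and each gene encodes a chain. Fibrillar collagens, such as types I, III and V, pack into the banded fibrils of connective tissue, and fibroblasts are their classical source. Type IV collagens form the sheet that underlies the seminiferous epithelium and every other basement membrane, and type VI makes beaded filaments in between. FACIT collagens sit on fibril surfaces, network collagens form hexagonal lattices, multiplexins are bound to basement membranes, and transmembrane collagens are anchored in the cell membrane.

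The members are spread over the genome, with a few close neighbours (mm10, which is GRCm38). The type IV genes stand in pairs that face away from a shared start region. Col4a1 and Col4a2 overlapped by 22 bp at their starts, Col4a4 and Col4a3 were 71 bp apart, and Col4a6 and Col4a5 were 1308 bp apart. Col3a1 and Col5a2 lay tail to tail at a distance of 24.6 kb on chromosome 1, and Col6a2 and Col6a1 followed each other at 85.2 kb on chromosome 10. RefSeq promoter windows (GRCm38.p6) were on hand for 35 of the 44 genes. The 250 bases before the start are printed for 4 genes that represent both sides of the response described below and whose windows touch no annotated exon. Col3a1 (chr1:45311288-45311537, plus strand) and Col8a1 (chr16:57754738-57754987, minus strand) were about 2.9-fold higher in NR. Col6a3 (chr1:90843972-90844221, minus strand) and Col13a1 (chr10:61979109-61979358, minus strand) had the largest falls in RA. Capitals mark matches, on either strand, to 4 motifs. These were TATAAA for the TATA box, CCAAT for the box of that name, GGGCGG for the GC box and AGGTCA for the half-site of nuclear receptors. All are read 5′ to 3′ along the gene's own strand.
Col3a1: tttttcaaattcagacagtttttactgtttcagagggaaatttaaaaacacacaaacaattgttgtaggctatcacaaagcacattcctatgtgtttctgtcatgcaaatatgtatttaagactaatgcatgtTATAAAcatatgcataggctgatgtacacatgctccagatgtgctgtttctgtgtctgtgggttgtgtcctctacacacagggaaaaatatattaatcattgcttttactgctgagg
Col8a1: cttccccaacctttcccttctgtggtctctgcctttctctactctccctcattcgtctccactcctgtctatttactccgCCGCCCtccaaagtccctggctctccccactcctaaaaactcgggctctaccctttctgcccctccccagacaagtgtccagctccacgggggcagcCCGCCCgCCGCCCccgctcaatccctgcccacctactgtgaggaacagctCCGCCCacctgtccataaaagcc
Col6a3: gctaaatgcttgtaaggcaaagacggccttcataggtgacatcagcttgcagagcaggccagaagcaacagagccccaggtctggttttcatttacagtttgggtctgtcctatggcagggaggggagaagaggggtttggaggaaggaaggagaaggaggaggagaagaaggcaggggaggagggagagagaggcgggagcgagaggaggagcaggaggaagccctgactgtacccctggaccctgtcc
Col13a1: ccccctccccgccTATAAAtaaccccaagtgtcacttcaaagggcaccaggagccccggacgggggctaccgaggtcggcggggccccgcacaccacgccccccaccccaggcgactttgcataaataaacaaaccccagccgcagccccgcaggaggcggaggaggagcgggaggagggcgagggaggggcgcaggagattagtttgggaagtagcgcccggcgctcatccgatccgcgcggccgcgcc
Col3a1 held a TATAAA 117 bases before its start, and Col13a1 held one 237 bases before. Col8a1 held 4 GC boxes, at 170, 73, 66 and 23 bases, the middle pair of which lie almost end to end. The Col6a3 window had none of these letters. Over the 35 members with a window, taking the first listed window of each, a GC box was found in 21 (60.0%), against 32.7% of all 32851 windows of this length. A CCAAT box was found in 12 (34.3%, against 33.8%) and also in a further window of Col9a1, a TATAAA in 5 (14.3%, against 12.4%) and an AGGTCA in 8 (22.9%, against 14.0%). Matches may overlap each other, and such a match is a description of letters, not of a bound site.

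The libraries held 19261333 to 30023585 assigned counts. Levels within a gene are given as CPM, its counts relative to the size of the library, scaled by the TMM factors of edgeR. Levels between genes are given per length, as CPM per kilobase of the gene's principal transcript (FPKM). A gene is said to have risen or fallen where its adjusted p was under 0.05 (edgeR quasi-likelihood F test over all 8 libraries, Benjamini-Hochberg over the 20477 genes). With 2 libraries a condition, the test borrows its estimate of spread from all genes. The labelled cell type was present: all 11 germ cell markers were detected. Their sum was 1195 to 1200 CPM in Veh, 1302 to 1349 in RA, 1468 to 1485 in NR and 1552 to 1570 in NRRA. The higher sum in NRRA does not hold for most of these markers. Against Veh, 4 rose there (36.4%, against 30.1% of all genes) and 7 fell (63.6%, against 28.7%). Their log2 fold changes ran from -3.48 to 5.82, with a median of -0.15. Fibroblast markers were far more abundant, and 13 of 14 reached 1 CPM. Their sum was 13580 to 13600 CPM in Veh, 10835 to 11555 in RA, 15019 to 15367 in NR and 10242 to 10474 in NRRA. Markers of peritubular myoid or smooth muscle cells (5 genes) summed to 90.6 to 92.6 CPM in Veh, 65.6 to 65.9 in RA, 522 to 528 in NR and 898 to 899 in NRRA. Markers of Sertoli cells summed to 9.54 to 14.0 CPM over all libraries with 4 of 7 under 1 CPM throughout, and those of Leydig cells to at most about 15 CPM with 4 of 5 under 1 CPM. No marker was at 0 in every library. The part of these cells in the collagen results was not tested.

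Collagen chain genes took up a sizeable share of each library, and the share differed between the media. They made up 1.46% and 1.44% of all counts in the Veh libraries and 1.22% and 1.16% with RA, but 2.78% and 2.94% in NR and 2.59% and 2.51% under NRRA. All libraries in NR medium were therefore above all libraries in complete medium. Col1a1, which encodes the main chain of type I collagen, ranked 8 and 8 among all genes by counts in Veh, 8 and 9 with RA, 2 and 2 in NR and 1 and 1 with NRRA. Per length it was also the highest member, with a mean over the conditions of 951 FPKM. It was followed by Col1a2 (619), Col3a1 (461), Col18a1 (189) and Col5a2 (160). At the other end, Col4a3 and Col9a1 stood at 0.0226 and 0.0664 FPKM.

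**Figure D1:**
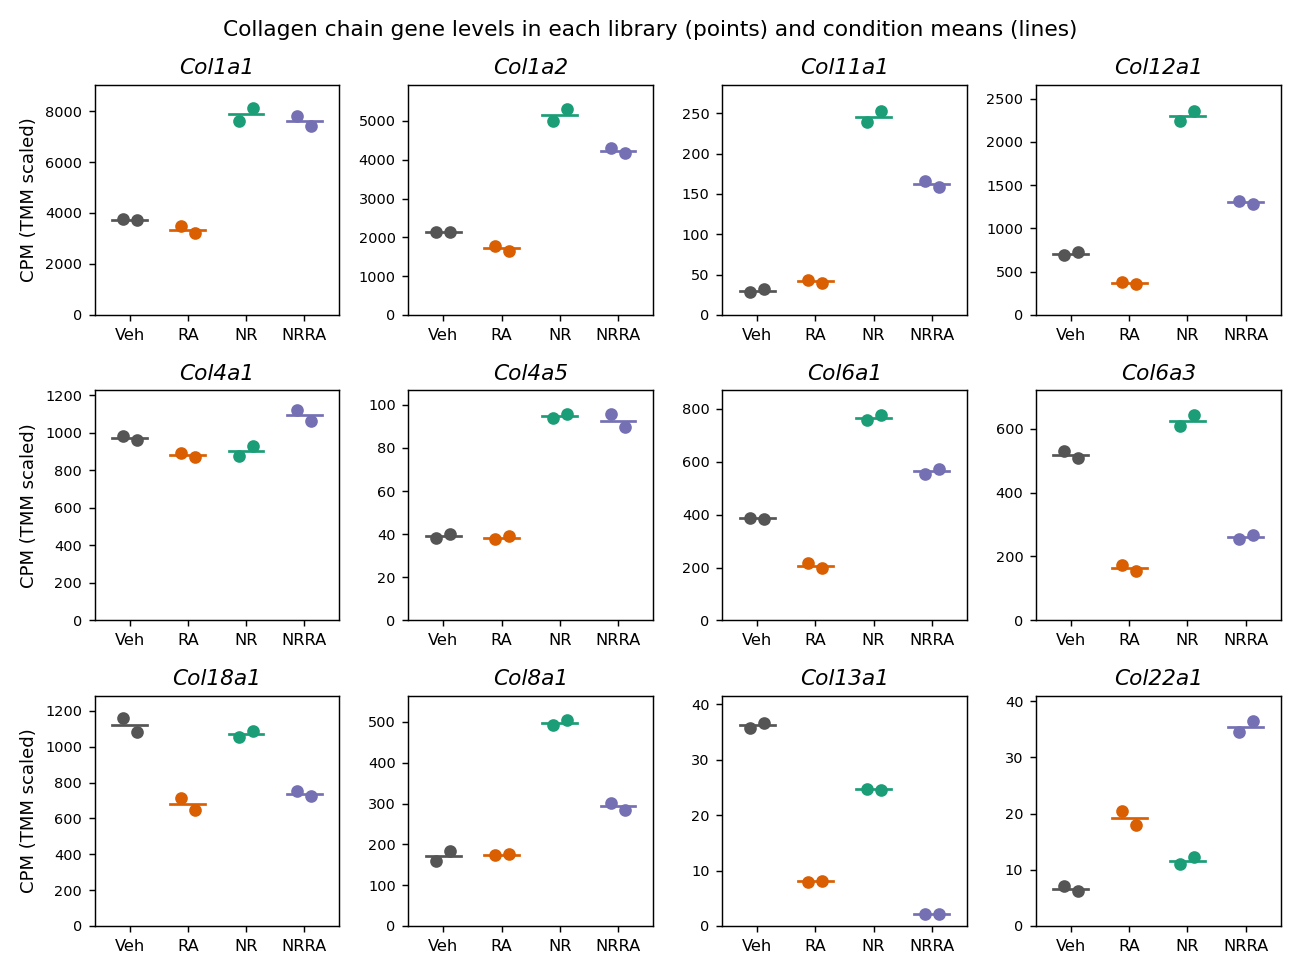
TMM-scaled CPM (y axis, from 0) of 12 collagen chain genes in the 4 conditions; each point is a library and each line the mean of 2. Col1a1, Col1a2, Col11a1, Col12a1, Col4a5 and Col8a1 were higher in both media with NR than in Veh, Col6a3 and Col18a1 were lowest in RA, and Col13a1 fell from 35.8 and 36.7 CPM in Veh to 2.11 and 2.12 CPM in NRRA.

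The make-up of this RNA shifted toward fibrillar chains. Fibrillar genes held 63.1% and 63.4% of the summed FPKM of all members in Veh, 67.0% and 66.3% with RA, 73.3% and 73.7% in NR and 76.0% and 75.7% with NRRA. Type IV genes held 11.2% and 11.0% in Veh, 12.6% and 13.1% with RA, 5.84% and 5.76% in NR and 7.96% and 7.86% with NRRA. Multiplexins went from 9.69% and 9.18% in Veh to 3.78% and 3.74% in NRRA. Basement membrane chains thus took a smaller part in both NR media. In each of these classes the libraries of NR and NRRA did not overlap those of Veh. Since these are shares, a class can lose share while its RNA rises, as type IV did in NRRA below. The fibrillar share was higher with RA than in Veh although 7 of 11 fibrillar genes fell there (63.6%, against 23.4% of all genes). In NRRA, 5 of 11 fibrillar genes rose (45.5%, against 30.1%) and 4 fell (36.4%, against 28.7%), so the gain was not shared by the whole class.

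**Figure D2:**
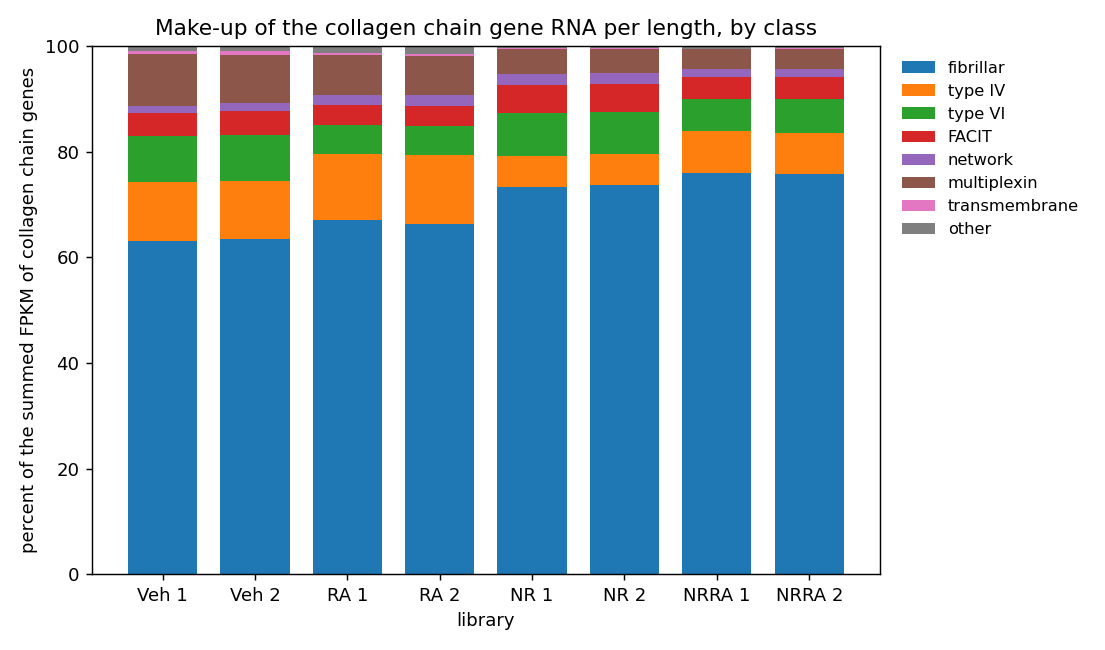
Percent of the summed FPKM of all collagen chain genes (y axis) held by each class in each of the 8 libraries (x axis). The fibrillar share runs from 63.1% in Veh replicate 1 to 76.0% in NRRA replicate 1, while type IV and multiplexin genes take less in NR and NRRA than in Veh.

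NR alone raised the collagen genes more often than it lowered them. In NR against Veh, 20 of 42 tested members rose (47.6%, against 21.7% of all genes). The 9 that fell (21.4%, against 22.2%) were near the share of all genes. With a change of at least 2-fold, 13 rose (5.33% of all genes) and 1 fell (2.96% of all genes). The median log2 fold change was 0.34 over the members and 0.01 over all genes tested. By class, the risers were 6 of 11 fibrillar, 2 of 5 type IV, 3 of 6 type VI, 5 of 8 FACIT and 2 of 3 network genes, with Col28a1 and Col25a1. Of these calls, 17 rises and 4 falls held with each library left out in turn. Fibroblast markers moved too (9 of 13 tested rose and 4 fell, median 0.22), and scaling the libraries to these markers gave 17 rises and 17 falls. That scaling uses the geometric mean of the markers with at least 20 counts in every library, and it shifts the median of all genes by -0.27. The share of all genes called under this scaling is not given, so these counts cannot be set against the shares above.

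RA alone lowered them more often than it raised them. In RA against Veh, 17 members fell (40.5%, against 23.4% of all genes). The 8 that rose (19%, against 19.8%) were near the share of all genes. At 2-fold or more, 4 rose (4.74%) and 3 fell (2.75%), and these falls were Col13a1, Col6a3 and Col2a1. The median was -0.08, against -0.02 over all genes. Fibrillar genes accounted for 7 of the falls and type VI genes for 3. Of these calls, 4 rises and 16 falls held with each library left out. Of 13 fibroblast markers, 8 fell and 3 rose. Scaled by library totals only, 11 members rose and 14 fell, for which the share of all genes is not given.

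In NRRA, rises from Veh were more frequent among the members than among all genes, and falls were not. There were 22 rises (52.4%, against 30.1% of all genes). The 12 falls (28.6%, against 28.7%) were near the share of all genes. At 2-fold or more were 10 of the rises (9.91% of all genes) and 4 of the falls (6.02% of all genes). The median was 0.27, against 0.03 over all genes. All 5 tested type IV genes rose, although Col4a1 and Col4a2 were on the other side of 0 with scaling to fibroblast markers, 6 of 8 FACIT genes rose, and both multiplexins fell. Of the calls, 19 rises and 9 falls held with each library left out. Of the 13 tested fibroblast markers, 5 rose and 8 fell, with log2 fold changes of -2.32 to 4.17 and a median of -0.15. The median of the members was 0.42 above that of the markers. The factors of the scaling to fibroblast markers went from 0.846 and 0.880 in Veh to 1.16 and 1.16 in NRRA, although most markers fell. With this scaling the split was 15 rises to 16 falls, at a shift of the all-gene median of -0.28. Scaling by library totals shifts that median to 0.14 and gave 23 rises and 9 falls. The shares of all genes called under these scalings are not given, so whether the members stand out there was not tested.

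The medium and RA can each be taken with the other held fixed. NRRA against RA, the effect of NR in the presence of RA, gave 23 rises (54.8%, against 20.9% of all genes). Its 8 falls (19%, against 19.4%) were near the share of all genes. Of at least 2-fold were 10 rises (4.61% of all genes) and 3 falls (3.68% of all genes). The median was 0.36. Scaled to the fibroblast markers, this became 15 rises and 14 falls, for which the share of all genes is not given. NRRA against NR, the effect of RA under restriction, gave 19 falls (45.2%, against 22.1% of all genes). Its 10 rises (23.8%, against 21.3%) were near the share of all genes. Of at least 2-fold were 3 rises (4.56% of all genes) and 5 falls (4.14% of all genes), and the median was -0.12. Veh, RA, NR and NRRA libraries are shared between these comparisons, so their counts are not independent of each other. By mean CPM, 17 of the 42 tested members were highest in NR, 11 in NRRA, 10 in Veh and 4 in RA, and 17 were lowest in RA. This ranking was made for the members only. Whether they differ in it from all genes was not tested.

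**Figure D3:**
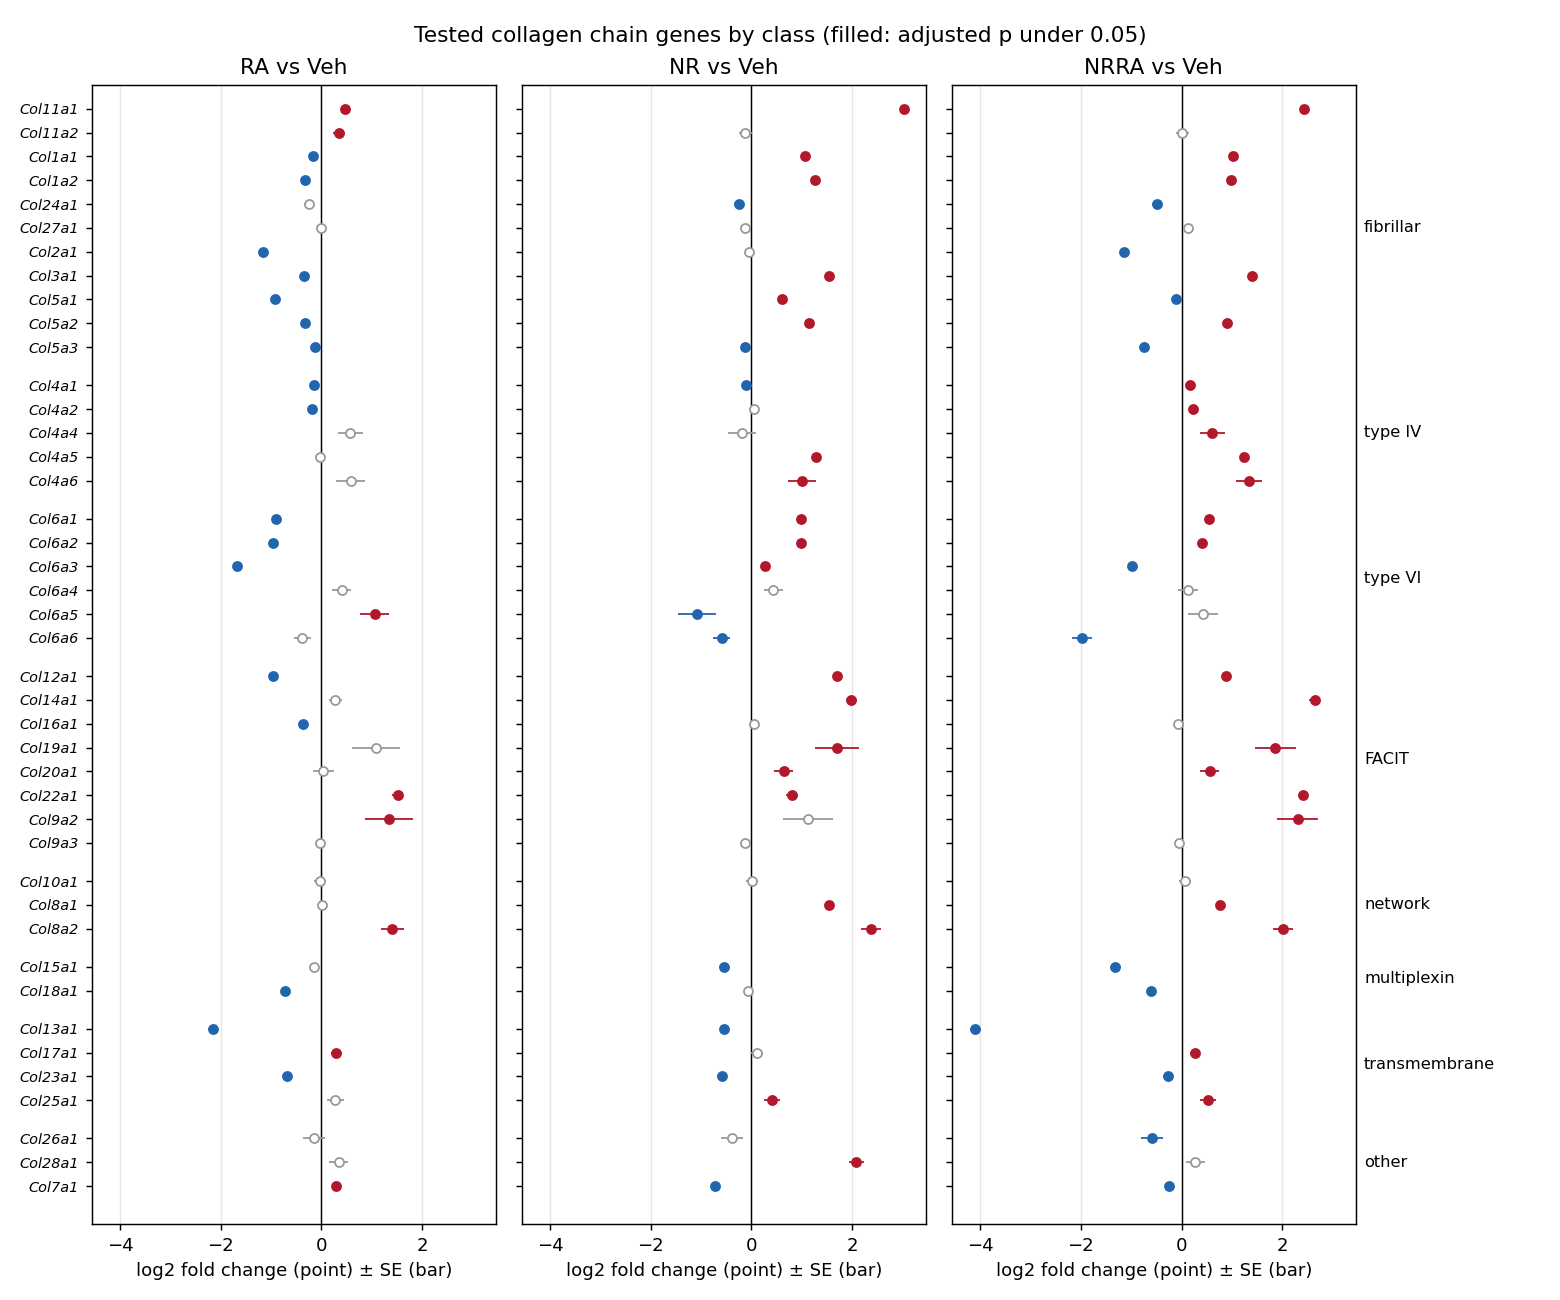
Log2 fold change with its SE (x axis) of the 42 tested collagen chain genes, grouped by class, in RA, NR and NRRA against Veh; filled points had an adjusted p under 0.05, red above and blue below 0. Fibrillar points lie mostly left of 0 in RA and reach 3.04 (Col11a1) in NR, and Col13a1 reaches -4.10 in NRRA; with scaling to fibroblast markers Col4a1 and Col4a2 change sign in NRRA.

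Among fibrillar genes, the type I, type III and main type V chains rose in NR, while the third type V chain, Col5a3, did not. Col1a1 (chr11:94936224-94953042) stood at 3761 and 3723 CPM in Veh, 3477 and 3203 with RA, 7628 and 8110 in NR and 7792 and 7415 with NRRA. It was therefore higher in both NR media than in Veh, and the libraries of NR and NRRA overlapped. The log2 fold change was 1.07 ± 0.038 (SE) in NR (adjusted p = 2.76e-18), 1.02 ± 0.038 in NRRA (3.75e-18) and -0.16 ± 0.038 in RA (0.000845). The small fall in RA was lost with scaling by library totals or with GC and length trends removed.

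Col1a2, the partner chain of Col1a1 in type I collagen, was at 2139 and 2143 CPM in Veh, 1788 and 1636 with RA, 4992 and 5303 in NR and 4298 and 4162 with NRRA. Here the conditions did not overlap. It rose 2.40-fold in NR (adjusted p = 1.36e-19) and 1.98-fold in NRRA (1.39e-17), and it fell in RA (log2 -0.32 ± 0.039, adjusted p = 1.5e-07). Outside the rule for named genes and chosen after their values were seen, Col3a1, of type III fibrils, rose 2.91-fold in NR, and Col5a2, of type V, 2.20-fold. In RA the log2 fold changes of these genes were -0.35 and -0.33. Col5a1, the other main type V chain, was likewise named outside the rule after its values were seen. It went from 1305 and 1219 CPM in Veh to 695 and 643 with RA, 1857 and 1991 in NR and 1192 and 1151 with NRRA, so that it was close to Veh in NRRA. Its fall in NRRA (log2 -0.11, adjusted p = 0.0316) was lost without Veh replicate 1 (-0.05, 0.245) or NRRA replicate 2 (-0.08, 0.216), and its sign changed with scaling by library totals. Col5a3, also named after its values were seen, was at 226 and 214 CPM in Veh, 209 and 195 with RA, 195 and 205 in NR and 134 and 127 with NRRA, so it was lowest in NRRA, without overlap. It fell in NRRA (log2 -0.75 ± 0.048, adjusted p = 4.67e-13) and slightly in NR (-0.13 ± 0.048, 0.0251), the latter not without Veh replicate 1 (-0.07, 0.225), NR replicate 1 (-0.08, 0.364) or NR replicate 2 (-0.15, 0.0605).

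The largest rise of any member in NR was that of Col11a1 (chr3:114030540-114220718), a fibril-nucleating chain best known from cartilage. It stood at 28.0 and 31.9 CPM in Veh, 43.1 and 40.2 with RA, 239 and 253 in NR and 166 and 159 with NRRA, and every condition was apart from the others. The change was 8.22-fold in NR (log2 3.04 ± 0.061, adjusted p = 1.96e-23), 5.42-fold in NRRA (1.08e-21) and 1.39-fold in RA (3.45e-06). Col2a1, the main chain of cartilage fibrils, did not follow it. It was at 40.4 and 35.3 CPM in Veh and 35.9 and 37.2 in NR, and at 17.1 and 16.9 in RA and 17.9 and 16.3 in NRRA. Col2a1 was therefore low in both conditions with RA (log2 -1.16 ± 0.080 in RA, adjusted p = 6.97e-12; -1.15 ± 0.077 in NRRA, 1.18e-12). In NR its log2 fold change was -0.05 ± 0.072 (adjusted p = 0.602). The 5 chondrocyte markers, 2 of them under 1 CPM in all libraries, summed to 41.1 and 39.1 CPM in Veh, 28.9 and 31.3 with RA, 40.0 and 43.9 in NR and 20.8 and 23.3 with NRRA. This sum was thus lower in both conditions with RA, but the markers did not move together. Of the 3 tested, 2 rose and 1 fell in RA (log2 -1.12 to 0.98, median 0.91). In NRRA, 1 rose and 1 fell (-2.16 to 1.05, median 0.34). The part of such cells in the result for Col2a1 was not tested.

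Ratios between chains were compared per length. Col1a1 to Col1a2 was 1.59 and 1.57 in Veh, 1.75 and 1.77 with RA, 1.38 and 1.38 in NR and 1.63 and 1.61 with NRRA. This ratio depends on the transcript taken for each gene. Col3a1 to Col1a1 was 0.394 and 0.401 in Veh, 0.349 and 0.348 with RA, 0.545 and 0.554 in NR and 0.512 and 0.528 with NRRA, so type III chains gained on type I in NR medium. Col11a1 to Col5a1 was 0.0235 and 0.0287 in Veh and 0.152 and 0.151 in NRRA. Col5a1 to Col5a2 went down from 1.46 and 1.31 in Veh to 0.683 and 0.682 in NRRA. Col4a1 to Col4a2 ranged from 1.03 to 1.23 over all 8 libraries, but its conditions did not overlap. It was 1.15 and 1.18 in Veh, 1.19 and 1.23 with RA, 1.03 and 1.06 in NR and 1.13 and 1.11 with NRRA. Col6a1 to Col6a2 ranged from 1.38 to 1.56.

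**Figure D4:**
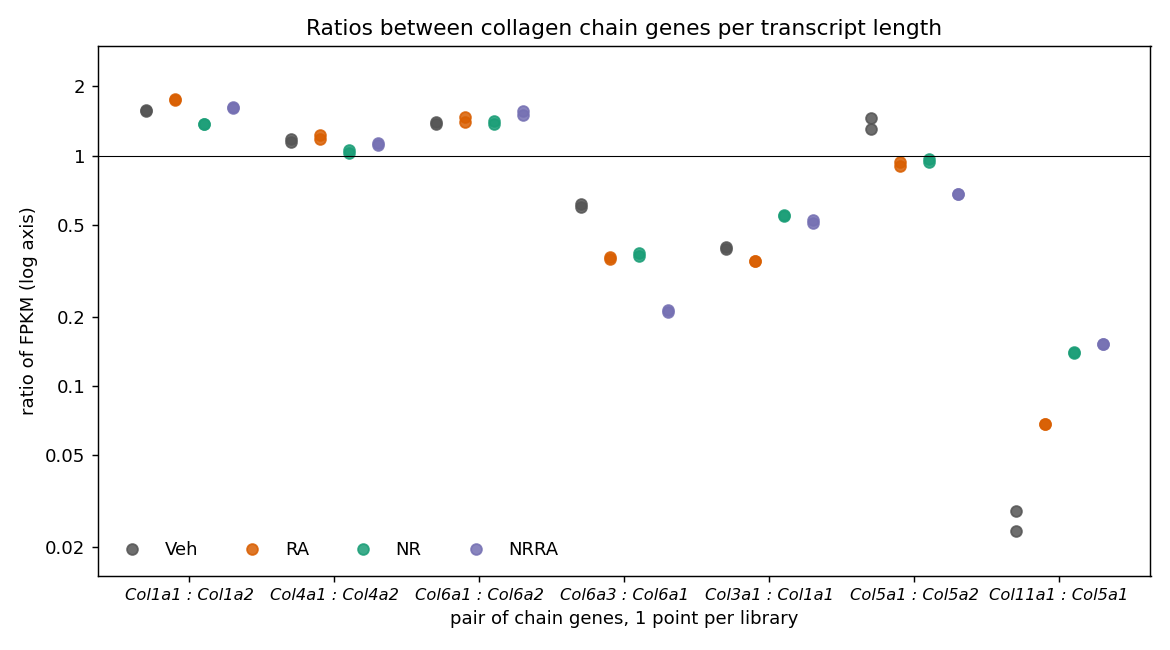
Ratio of the FPKM of 7 pairs of collagen chain genes (log y axis), with 1 point per library coloured by condition. Col4a1 to Col4a2 and Col6a1 to Col6a2 stay within 1.03 to 1.23 and 1.38 to 1.56, whereas Col6a3 to Col6a1 falls from 0.620 in Veh replicate 1 to 0.210 in NRRA replicate 1 and Col11a1 to Col5a1 climbs from 0.0235 to 0.152.

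The abundant type IV genes were highest where RA and NR were combined. Col4a1 (chr8:11198423-11312826), which with Col4a2 forms the common basement membrane network, was at 982 and 961 CPM in Veh, 890 and 871 with RA, 874 and 927 in NR and 1122 and 1064 with NRRA. It was thus highest in NRRA, without overlap. It fell in RA (log2 -0.14 ± 0.038, adjusted p = 0.00388) and in NR (-0.11 ± 0.038, 0.0225) and rose in NRRA (0.17 ± 0.038, 0.000427). The fall in NR was lost without Veh replicate 1 (-0.08, adjusted p = 0.0987) or NR replicate 1 (-0.05, 0.488). Both falls were lost with scaling by library totals, with GC and length trends removed and with a fit of only the conditions compared.

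Col4a2 followed its neighbour, with 832 and 796 CPM in Veh, 731 and 692 with RA, 827 and 854 in NR and 964 and 931 with NRRA. Its log2 fold change was -0.20 ± 0.039 in RA (adjusted p = 0.000208), 0.05 ± 0.039 in NR (0.362) and 0.22 ± 0.039 in NRRA (2.48e-05). These are changes of under 1.2-fold, and scaling to fibroblast markers turned the rises in NRRA into -0.14 for Col4a1 (adjusted p = 0.00399) and -0.09 for Col4a2 (0.0586).

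Col4a5, an X-linked chain of the networks of specialised basement membranes, behaved in another way. It was at 38.3 and 40.2 CPM in Veh and 37.7 and 39.0 with RA, and at 93.9 and 95.8 in NR and 95.5 and 89.6 with NRRA. No change with RA was detected, with log2 fold changes of -0.03 ± 0.063 against Veh and -0.04 ± 0.051 against NR, while NR raised it 2.42-fold (adjusted p = 7e-16). Its neighbour Col4a6 was scarce, at 1.29 and 0.834 CPM in Veh, 1.78 and 1.46 with RA, 2.07 and 2.20 in NR and 2.89 and 2.54 with NRRA. It rose in NRRA (log2 1.34 ± 0.25, adjusted p = 5.18e-05) and in NR (1.00 ± 0.27, 0.00367), the latter not without Veh replicate 2 (0.75, 0.0621). The last pair was barely expressed. Col4a4 had 27 to 69 counts a library, and its rise in NRRA (0.61 ± 0.24, adjusted p = 0.0314) was lost without Veh replicate 1 (0.51, 0.173), Veh replicate 2 (0.73, 0.0512) or NRRA replicate 1 (0.46, 0.197), with DESeq2 and with scaling to fibroblast markers (0.30, 0.289). Col4a3 had 2 to 9 counts and was not tested.

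In type VI the main chains were down in RA and parted in NR. Col6a1 (chr10:76708792-76726168) was at 388 and 383 CPM in Veh, 215 and 198 with RA, 755 and 776 in NR and 553 and 573 with NRRA. Col6a2 was at 272 and 265 CPM in Veh, 141 and 135 with RA, 513 and 541 in NR and 355 and 354 with NRRA. Both were at their lowest level in RA and at their highest in NR, without any overlap between conditions.

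Side by side, the log2 fold changes of Col6a1 and Col6a2 were -0.90 ± 0.043 and -0.96 ± 0.043 with RA, 0.99 ± 0.042 and 0.98 ± 0.042 in NR, and 0.55 ± 0.042 and 0.40 ± 0.041 with NRRA, all past the threshold. With scaling to the fibroblast markers the rise of Col6a2 in NRRA was lost (0.09, adjusted p = 0.0972).

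Col6a3, whose large chain joins the other chains in the type VI molecule, responded more to RA and less to NR. It was at 529 and 507 CPM in Veh, 172 and 154 with RA, 609 and 642 in NR and 254 and 268 with NRRA. The fall in RA was 3.18-fold (log2 -1.67 ± 0.049, adjusted p = 1.81e-19) and the rise in NR 1.21-fold (0.27 ± 0.046, 2.56e-05), and with scaling to the fibroblast markers the latter went to -0.002 (adjusted p = 0.972). Per length, Col6a3 to Col6a1 was 0.620 and 0.602 in Veh, 0.365 and 0.355 with RA, 0.367 and 0.377 in NR and 0.210 and 0.213 with NRRA. The ratio was therefore reduced by each treatment and further by both.

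The alternative type VI chains were scarce. Col6a6 was at 4.85 and 4.53 CPM in Veh, 3.57 and 3.64 with RA, 3.23 and 3.04 in NR and 1.11 and 1.25 with NRRA, and fell 3.96-fold in NRRA (adjusted p = 2.15e-09). Its fall in NR (log2 -0.59, adjusted p = 0.00637) was lost without Veh replicate 1 (-0.52, 0.0568) or NR replicate 2 (-0.52, 0.0669) and with DESeq2. Col6a5 was at 0.941 and 1.15 CPM in Veh, 1.73 and 2.50 with RA, 0.530 and 0.456 in NR and 1.36 and 1.44 with NRRA. It rose in RA (log2 1.05 ± 0.28, adjusted p = 0.00334), but not without RA replicate 2 (0.73, 0.130). Its fall in NR (-1.08 ± 0.38, adjusted p = 0.0232) was lost without Veh replicate 2 (-0.93, 0.131), NR replicate 1 (-1.16, 0.0617) or NR replicate 2 (-0.95, 0.147) and with DESeq2.

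Of 8 tested FACIT genes, 6 rose in NRRA (75%, against 30.1% of all genes) and none fell (28.7% of all genes fell). With scaling to fibroblast markers, however, Col16a1 (-0.37, adjusted p = 4.38e-08) and Col9a3 (-0.35, 0.00236) fell and the rise of Col20a1 was lost (0.25, 0.259). Col12a1 (chr9:79598991-79718831), the most abundant, encodes a chain that coats type I fibrils. It was at 688 and 729 CPM in Veh, 376 and 352 with RA, 2238 and 2361 in NR and 1321 and 1287 with NRRA. NR raised it 3.24-fold (adjusted p = 7.95e-22), RA lowered it 1.95-fold (4.74e-16), and NRRA lay in between at 1.84-fold above Veh (3.93e-16). The interaction of the treatments was 0.14 ± 0.057 on the log2 scale (adjusted p = 0.105).

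Col14a1, another fibril coat, went from 5.84 and 7.35 CPM in Veh, through 9.02 and 7.21 in RA and 24.7 and 27.1 in NR, to 42.0 and 40.4 in NRRA. The rise was 3.94-fold in NR (adjusted p = 4.9e-14) and 6.25-fold in NRRA (9.89e-18), which was the largest rise of any member with at least 20 counts on average in that comparison. Col22a1, a chain of tissue junctions such as that of muscle and tendon, was raised by each treatment. It was at 7.08 and 6.25 CPM in Veh, 20.4 and 18.0 with RA, 11.0 and 12.2 in NR and 34.5 and 36.4 with NRRA, in steps without overlap. It rose 2.85-fold in RA (adjusted p = 1.41e-11), 1.75-fold in NR (3.38e-06) and 5.31-fold in NRRA (2.77e-17). Col16a1 was at 229 and 219 CPM in Veh, 177 and 173 with RA, 223 and 242 in NR and 215 and 214 with NRRA, and only its fall in RA passed the test among the comparisons with Veh (log2 -0.36 ± 0.046, adjusted p = 5.62e-07). Of the other tested FACIT genes, Col9a2, Col19a1 and Col20a1 rose in NRRA by log2 0.56 to 2.31 at under 5 CPM, the rise of Col20a1 being lost without Veh replicate 2 (0.44, adjusted p = 0.105) or NRRA replicate 2 (0.48, 0.087). The log2 fold change of Col9a3 was -0.04 ± 0.094.

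The type VIII network genes rose with NR. Col8a1 (chr16:57624258-57754737) was at 159 and 185 CPM in Veh, 173 and 175 with RA, 492 and 505 in NR and 301 and 285 with NRRA. RA and Veh overlapped, and NR was 2.90-fold above Veh (adjusted p = 9.15e-19) and NRRA 1.71-fold (9.38e-13). Its partner Col8a2 was far less abundant, at 1.73 and 1.41 CPM in Veh, 3.62 and 4.61 with RA, 7.56 and 8.66 in NR and 5.54 and 7.16 with NRRA. It rose 2.66-fold in RA (adjusted p = 1.23e-05), 5.17-fold in NR (2.01e-10) and 4.04-fold in NRRA (2.92e-09). Col10a1, of growth plate cartilage, was between 7.08 and 8.23 CPM in all 8 libraries, with a log2 fold change of 0.06 ± 0.12 in NRRA.

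The multiplexins fell in NRRA. Col18a1 (chr10:77052178-77166548), a basement membrane collagen and the source of endostatin, was at 1162 and 1085 CPM in Veh, 713 and 649 with RA, 1055 and 1089 in NR and 753 and 723 with NRRA. It was low in both conditions with RA (log2 -0.72 ± 0.043 in RA, adjusted p = 4.31e-13; -0.61 ± 0.043 in NRRA, 3.73e-12), and NR overlapped Veh (-0.07 ± 0.043, 0.214). Col15a1 was at 18.4 and 17.8 CPM in Veh, 17.9 and 15.2 with RA, 13.4 and 11.7 in NR and 7.93 and 6.68 with NRRA. It fell in NR (log2 -0.54 ± 0.11, adjusted p = 0.00014) and 2.49-fold in NRRA (9.39e-11), whereas its change in RA was -0.14 ± 0.10 (0.26).

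The strongest fall of all members was that of a transmembrane collagen. Col13a1 (chr10:61838236-61979108), found at adhesion sites and the neuromuscular junction, was at 35.8 and 36.7 CPM in Veh, 7.95 and 8.18 with RA, 24.7 and 24.6 in NR and 2.11 and 2.12 with NRRA. The duplicates lay close together and every condition was apart. It fell 4.48-fold in RA (adjusted p = 7.81e-17), 1.47-fold in NR (4.47e-07) and 17.1-fold in NRRA (log2 -4.10 ± 0.11, adjusted p = 1.41e-21). Col23a1 was at 16.1 and 16.4 CPM in Veh, 10.3 and 9.92 with RA, 10.5 and 11.0 in NR and 12.7 and 14.2 with NRRA. It fell in RA (log2 -0.69 ± 0.098, adjusted p = 2.66e-06) and in NR (-0.59 ± 0.098, 1.7e-05). Its fall in NRRA (-0.27 ± 0.091, 0.0123) was lost without NRRA replicate 1 (-0.20, 0.139), with DESeq2, with library totals and with GC and length trends removed. Col25a1 was at 3.91 and 3.96 CPM in Veh, 4.03 and 5.31 with RA, 5.69 and 4.86 in NR and 5.68 and 5.71 with NRRA. It rose in NRRA (log2 0.53 ± 0.16, adjusted p = 0.00498), though not with scaling to the fibroblast markers (0.22, 0.238) or with GC and length trends removed.

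Of the remaining genes, Col7a1 (chr9:108953586-108984875) forms the anchoring fibrils of the skin. In RA alone and in NR alone it moved against the type I, type III and main type V chains, though not against every fibrillar gene. It was at 198 and 199 CPM in Veh, 241 and 244 with RA, 117 and 122 in NR and 175 and 159 with NRRA, without overlap. It rose in RA (log2 0.29 ± 0.047, adjusted p = 1.7e-05), fell in NR (-0.73 ± 0.049, 2.06e-12) and fell less in NRRA (-0.25 ± 0.047, 6.5e-05). Col28a1, a chain described in peripheral nerve, was at 2.92 and 2.71 CPM in Veh, 3.36 and 3.75 with RA, 10.7 and 13.1 in NR and 3.47 and 3.37 with NRRA. Its 4.25-fold rise in NR (adjusted p = 1.01e-11) was not seen in NRRA, where the log2 fold change from Veh was 0.28 ± 0.18 (0.199). Col26a1 was at 3.17 and 2.40 CPM in Veh, 2.29 and 2.67 with RA, 1.73 and 2.47 in NR and 1.89 and 1.83 with NRRA. Its fall in NRRA (log2 -0.58 ± 0.22, adjusted p = 0.0261) was lost without Veh replicate 1 (-0.36, 0.306), NRRA replicate 1 (-0.61, 0.0662) or NRRA replicate 2 (-0.56, 0.0967), with DESeq2 and with library totals.

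Whether RA acted differently under restriction was tested as an interaction, the log2 change with RA in NR medium less that in complete medium. For 10 of 42 members it was above 0 (6.37% of all genes) and for 8 below 0 (6.58% of all genes), with 1 (0.786%) and 5 (1.46%) of at least 2-fold. The median was 0.07 over the members and 0.02 over all genes. Calls that held with each library left out were 6 above and 6 below 0. Above 0 were the type VI chains Col6a1 (0.46 ± 0.059, adjusted p = 2.98e-06), Col6a2 and Col6a3 and the type IV chains Col4a1 (0.42 ± 0.054, 2.99e-06) and Col4a2. Col3a1 (0.22), Col5a1 (0.20), Col16a1 (0.24) and Col18a1 (0.18) were also above 0, but these calls did not hold with each library left out. The largest above 0 was Col23a1 (1.01 ± 0.14, adjusted p = 6.44e-06), which RA lowered in complete medium and which was at 10.5 and 11.0 CPM in NR and 12.7 and 14.2 in NRRA. Its rise from NR to NRRA (0.32, adjusted p = 0.00731) was lost without NR replicate 1 (0.27, 0.081), without NRRA replicate 2 (0.24, 0.125) and with DESeq2. Below 0 were Col28a1 (-2.16 ± 0.23, adjusted p = 1.33e-07), Col8a2 (-1.76 ± 0.26, 2.87e-05) and Col13a1 (-1.38 ± 0.15, 3.26e-07). Also below 0 were Col11a1, Col8a1, Col5a3, Col6a6, whose call was lost without NRRA replicate 1 (-0.93, 0.0565), and Col15a1, lost without NRRA replicate 2 (-0.51, 0.0646). For Col1a1 and Col1a2, the interaction was 0.11 ± 0.053 (adjusted p = 0.171) and 0.04 ± 0.054 (0.71), so a difference in their response to RA between the media was not detected.

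**Figure D5:**
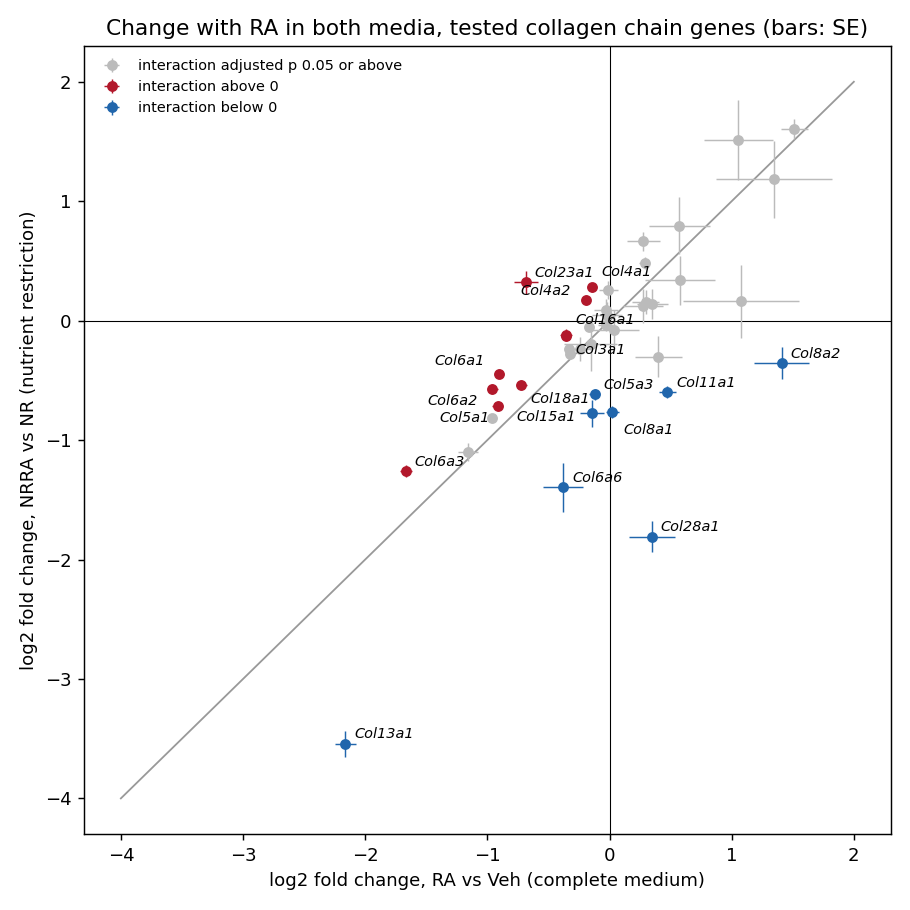
Log2 change with RA in complete medium (x axis) and in NR medium (y axis) of the 42 tested collagen chain genes, with SE bars; the line marks equal change, and coloured, named points had an interaction with an adjusted p under 0.05. Col13a1 lies lowest, at -2.16 and -3.54, and Col28a1 at 0.35 and -1.81 is the point farthest below the line.

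Genes that fold, process and bind collagen were taken from lists of textbook members. Of 23 genes for folding and modification in the endoplasmic reticulum, 2 rose (8.7%, against 19.8% of all genes) and 12 fell (52.2%, against 23.4%) in RA. In NR, 14 rose (60.9%, against 21.7%) and 3 fell (13.0%, against 22.2%). In NRRA, 12 rose (52.2%, against 30.1%), and the 6 that fell (26.1%, against 28.7%) were near the share of all genes. The largest rise in NRRA was that of P3h2, a prolyl 3-hydroxylase, from 3.12 and 3.13 CPM in Veh to 9.93 and 7.51 (log2 1.47 ± 0.16, adjusted p = 1.6e-08). The largest fall past the threshold was that of P3h4, a partner of lysyl hydroxylase, from 73.5 and 67.5 to 47.4 and 48.4 CPM (-0.56 ± 0.058, adjusted p = 5.4e-09). Named after its values were seen, P4ha3, a catalytic subunit of prolyl 4-hydroxylase, went from 14.9 and 12.9 CPM in Veh to 6.63 and 6.28 with RA, 96.7 and 99.0 in NR and 31.4 and 29.2 with NRRA.

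Of 14 genes for procollagen processing and crosslinking, 8 fell in RA (57.1%, against 23.4% of all genes), 10 rose in NR (71.4%, against 21.7%) and 8 rose in NRRA (57.1%, against 30.1%). The counts in the other direction were near the shares of all genes, with 3 rises in RA (21.4%, against 19.8%), 3 falls in NR (21.4%, against 22.2%) and 4 falls in NRRA (28.6%, against 28.7%). Lox, the lysyl oxidase that crosslinks fibrils, was at 720 and 837 CPM in Veh, 630 and 594 with RA, 2669 and 2653 in NR and 2492 and 2424 with NRRA. It rose 3.16-fold in NRRA (adjusted p = 1.73e-20). Tll2, a tolloid-like proteinase, had the largest fall in NRRA, from 2.23 and 2.19 to 0.893 and 0.674 CPM (log2 -1.50 ± 0.28, adjusted p = 4.04e-05).

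Of 9 collagen receptors tested, 3 rose (33.3%, against 19.8% of all genes) and 4 fell (44.4%, against 23.4%) in RA, and 4 rose (44.4%, against 21.7%) and 3 fell (33.3%, against 22.2%) in NR. In NRRA 3 rose and 3 fell (33.3% each), near the 30.1% and 28.7% of all genes. Itga11, the integrin subunit for fibrillar collagen on fibroblasts, went from 22.2 and 22.6 CPM in Veh to 12.1 and 11.2 with RA, 194 and 188 in NR and 99.0 and 95.8 with NRRA, a rise of 4.35-fold in NRRA (adjusted p = 1.46e-20). Itga2, a collagen receptor of epithelial cells and platelets, went the other way, from 41.9 and 54.8 CPM in Veh and 61.4 and 61.2 with RA to 7.47 and 7.71 in NR and 9.15 and 7.67 with NRRA, a fall of 5.76-fold in NRRA (3.52e-17). Among 16 other basement membrane genes, 3 rose (18.8%, against 19.8% of all genes) and 7 fell (43.8%, against 23.4%) in RA. In NR 6 rose and 6 fell (37.5% each, against 21.7% and 22.2%), and in NRRA 7 rose (43.8%, against 30.1%) and 5 fell (31.2%, against 28.7%). Those at the ends in NRRA were the laminin chains Lama1 (log2 0.54 ± 0.11, adjusted p = 0.000173) and Lamb3 (-1.51 ± 0.51, adjusted p = 0.0137, under 1.2 CPM in all libraries).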

How the data were processed

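Counts were analysed for 8 libraries of cultured mouse spermatogonia, 2 each of Veh, RA, NR and NRRA, grouped by the sample labels. The authors deposited unnormalized counts per gene; their processing notes name bcl2fastq, STAR 2.6.1c, featureCounts 1.6.4 and the build mm10. The libraries were made from poly(A) RNA with a stranded kit per the paper's methods, and the labels name another kit. The strand setting of the counting and the annotation release were not given in the sources used here. No member shared 10% or more of its exon bases with another gene. All 8 columns were matched to libraries by name.

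Genes were filtered with filterByExpr, which left 20477, scaled by TMM and fitted in edgeR 4.0.16 (R 4.3.3) with 1 coefficient per condition over all 8 libraries, with 4 residual degrees of freedom and a biological coefficient of variation of 3.35%. Tests were two-sided quasi-likelihood F tests with Benjamini-Hochberg adjustment over all genes tested. The SE is the absolute log2 fold change divided by the square root of F. Coordinates and principal transcript lengths came from GENCODE M21 (GRCm38), in which 55240 of 55421 identifiers were found. Replicates differed by more than counting noise, with a chi-square of 1.58 to 3.93 per gene. Alternatives were DESeq2 1.42.0, other scalings, no filter, removal of GC and length trends, a replicate block, fits of only the conditions compared, and leaving out each library.

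The members, classes and lists were chosen with earlier results of these data known. Named genes were, per class, the 2 with the highest FPKM and the largest rise and fall in NRRA against Veh, over all members the 3 largest rises and falls in RA, NR and NRRA against Veh and in the interaction, with a mean of at least 20 counts, the type IV pairs, and per list the largest rise and fall in NRRA. Figures were drawn with matplotlib 3.10.9 in Python 3.11.15.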

Additional observations from a re-analysis of the deposited data

Results flagged for a closer look

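Among the named collagen genes, 6 were listed because the effect of RA differed between complete and NR medium by the test of the interaction itself. They had the 3 largest values above 0, Col23a1 (log2 1.01), Col6a1 (0.46) and Col4a1 (0.42). They also had the 3 largest below 0, Col28a1 (-2.16), Col8a2 (-1.76) and Col13a1 (-1.38). Other named genes passed this test as well, among them Col11a1 (-1.07, adjusted p = 8.5e-10), Col8a1 (-0.79, 1.03e-08), Col6a2, Col6a3 and Col4a2. For Col28a1 and Col8a2 the gain with NR was large. From NR to NRRA, Col28a1 fell by log2 -1.81 (adjusted p = 1.36e-11). Col8a2 fell less (-0.35, 0.0391), a call lost with DESeq2, with library totals and without NR replicate 2 or NRRA replicate 1. For Col13a1 the fall in NRRA was larger than the sum of the separate falls on the log2 scale. All 6 listed genes kept an adjusted p under 0.05 with each library left out in turn (edgeR quasi-likelihood test, Benjamini-Hochberg). Col28a1 and Col8a2 rest on 52 to 344 and 27 to 228 counts per library.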

How the results depend on the processing

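Counts of collagen genes past the threshold moved by more than 1.5 times with DESeq2, with scaling to fibroblast markers, with a minimum fold change and without some of the libraries. These counts are of members only. Apart from the minimum fold change, the shares of all genes under the alternatives are not given. DESeq2 gave 5 rises in RA, 5 falls in NRRA against RA and 6 rises in NRRA against NR. Scaling to fibroblast markers gave 17 falls in NR and, in NRRA against RA, 15 rises and 14 falls. A fold change of at least 2 left 4 rises and 3 falls in RA, 13 and 1 in NR, 10 and 4 in NRRA, 10 and 3 in NRRA against RA, 3 and 5 in NRRA against NR, and 1 and 5 in the interaction. Leaving out each library in turn gave 5 to 9 rises and 16 to 18 falls in RA, 17 to 21 rises and 5 to 9 falls in NR, 20 to 22 rises and 10 to 12 falls in NRRA, 20 to 23 rises and 5 to 8 falls in NRRA against RA, 8 to 10 rises and 16 to 20 falls in NRRA against NR, and 6 to 13 above and 7 to 8 below 0 in the interaction. The lowest of these were 5 rises in RA without RA replicate 2, 5 falls in NR without NR replicate 1 or 2, 5 falls in NRRA against RA without NRRA replicate 2, and 6 interactions above 0 without RA replicate 2 or NR replicate 1. Among the 29 tested named genes, 464 alternative values of the NRRA change gave 439 with the same direction and call, 17 that lost the threshold, 1 that gained it and 7 that reversed. The reversals were, with scaling to fibroblast markers, Col4a1 (-0.14), Col4a2 (-0.093), Col10a1 (-0.25) and Col28a1 (-0.034), with library totals Col16a1 (0.051), with GC and length trends removed Col16a1 (0.032), and without Veh replicate 1 Col10a1 (-0.042, and 0.17 without Veh replicate 2). The cause was not tested. Same-numbered libraries did not deviate together (correlations of -0.07 to 0.09 between conditions), and with the replicate number as a block the counts were 8 rises and 17 falls in RA, 19 and 9 in NR, 22 and 12 in NRRA, 23 and 7 in NRRA against RA, 10 and 19 in NRRA against NR, and 10 and 8 in the interaction, which needs all 4 conditions and so has no fit of only those compared. Chosen after seeing the data, the length of all exons joined in place of the principal transcript gave a Col1a1 to Col1a2 mean ratio of 3.31 in Veh, of 3.69 with RA, of 2.89 in NR and of 3.40 with NRRA. Depth limits the scarce chains, such as Col4a4, Col6a5 and Col9a2, whose errors exceed 0.2 on the log2 scale.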

Other observations

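Col9a1, a chain of the cartilage FACIT type IX, was not tested and had 4 and 4 counts in Veh, 4 and 4 with RA, 6 and 8 in NR and 6 and 15 with NRRA. Col4a3, a type IV chain of the glomerular basement membrane, was not tested either and had 2 and 3 counts in Veh, 4 and 9 with RA, 6 and 4 in NR and 4 and 6 with NRRA.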
